A study of Mus musculus with 703 samples.

Results

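Kbtbd4, Ncoa4 and Plekhh1 are 3 of the 19088 genes in the deposited count table. They were picked because their difference between metformin-treated and untreated animals depended on strain, so the metformin values below are a description and carry no test. The questions asked here are how each gene was distributed over the animals of a strain, and whether those animals fell into separate levels. The data were bulk RNA sequencing of gastrocnemius muscle, with 352 libraries from females and 351 from males, 20 strains and 22 to 38 libraries per strain. Each strain was the F1 cross of a pair of Collaborative Cross lines (CC-RIX mice), and the strains were spread over both sexes, a diet with 10% or 44% fat, with fiber added in both, and metformin in drinking water (5 mg/mL) or none. The untreated groups held 236 females and 233 males, of which 234 were on 10% and 235 on 44% fat. The metformin groups held 57 females and 59 males on 10% fat, and 59 females and 59 males on 44% fat. Diets began at 6 weeks of age and the drug at 7 months, and tissue came from animals of 6 or 12 months. Ages of single animals are not in the labels. Treated animals must be of the older cohort and untreated ones can be of both, so metformin and age cannot be told apart.

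NCOA4 is the cargo receptor that carries ferritin, the iron storage protein, to the lysosome, where its iron is released (ferritinophagy). KBTBD4 is a BTB-Kelch protein that serves as a substrate adaptor of the CUL3 ubiquitin ligase, with the CoREST complex of histone deacetylases and demethylases among its targets. PLEKHH1 carries pleckstrin homology, MyTH4 and FERM domains, modules that bind membrane lipids and the cytoskeleton.

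All 3 genes were detected in every library. Library totals (in units of 1000000 counts) ran from 27.4 to 96.1 with a median of 47.9. Coordinates are GRCm38, the build of the deposited files. Kbtbd4 (ENSMUSG00000005505, chr2:90904740-90911626, plus strand) had 327 counts in its lowest library, a median of 683 and a highest value of 4038. Ncoa4 (ENSMUSG00000056234, chr14:32159865-32179855, plus strand) had 321, 1913 and 5668 counts. Plekhh1 (ENSMUSG00000060716, chr12:79029163-79081648, plus strand) had 6, 68 and 7702 counts, so its values carry the most counting error. Per kilobase of annotated exon, mean levels were 4.65 CPM (counts per 1000000 counts of the library) for Kbtbd4, 4.43 for Ncoa4 and 0.279 for Plekhh1. Summed CPM of 9 muscle fibre markers lay between 86891 and 160941 in all libraries. The 5 hepatocyte markers together had a median of 2.09 CPM, with a lowest value of 0 and a highest of 5622 CPM. In 15 libraries the Xist level went against the sex label, in 4 the profile was nearest to another strain, and 19 libraries met either description. They were kept as labelled.

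Within a strain, animals were sorted by log2 CPM and divided at every empty interval of at least 0.5 log2 units. A piece of at least 3 animals was called a level. By this description 4 of the 60 pairs of a member and a strain (6.67%) held more than 1 level, against 12.7% of the pairs over all 17740 genes. At least 1 strain with levels was found for 33.2% of all genes, many of them with few counts. Among genes with a mean of at least 5 CPM, a limit that Kbtbd4 and Ncoa4 pass and Plekhh1 does not, levels were found in 0.688% of pairs, and in 0.216% where the empty interval had to reach 1 log2 unit. The limit of 5 CPM was set after the data were seen. The median within-strain standard deviation (SD) of log2 CPM was 0.142 for Kbtbd4, 0.137 for Ncoa4 and 0.769 for Plekhh1, beside 0.315 over all genes. Beside all genes, Kbtbd4 and Ncoa4 therefore varied little in most strains and widely in 1 strain each, whereas Plekhh1 varied widely in all. The SDs were not compared with those of genes of like level.

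**Figure D1:**
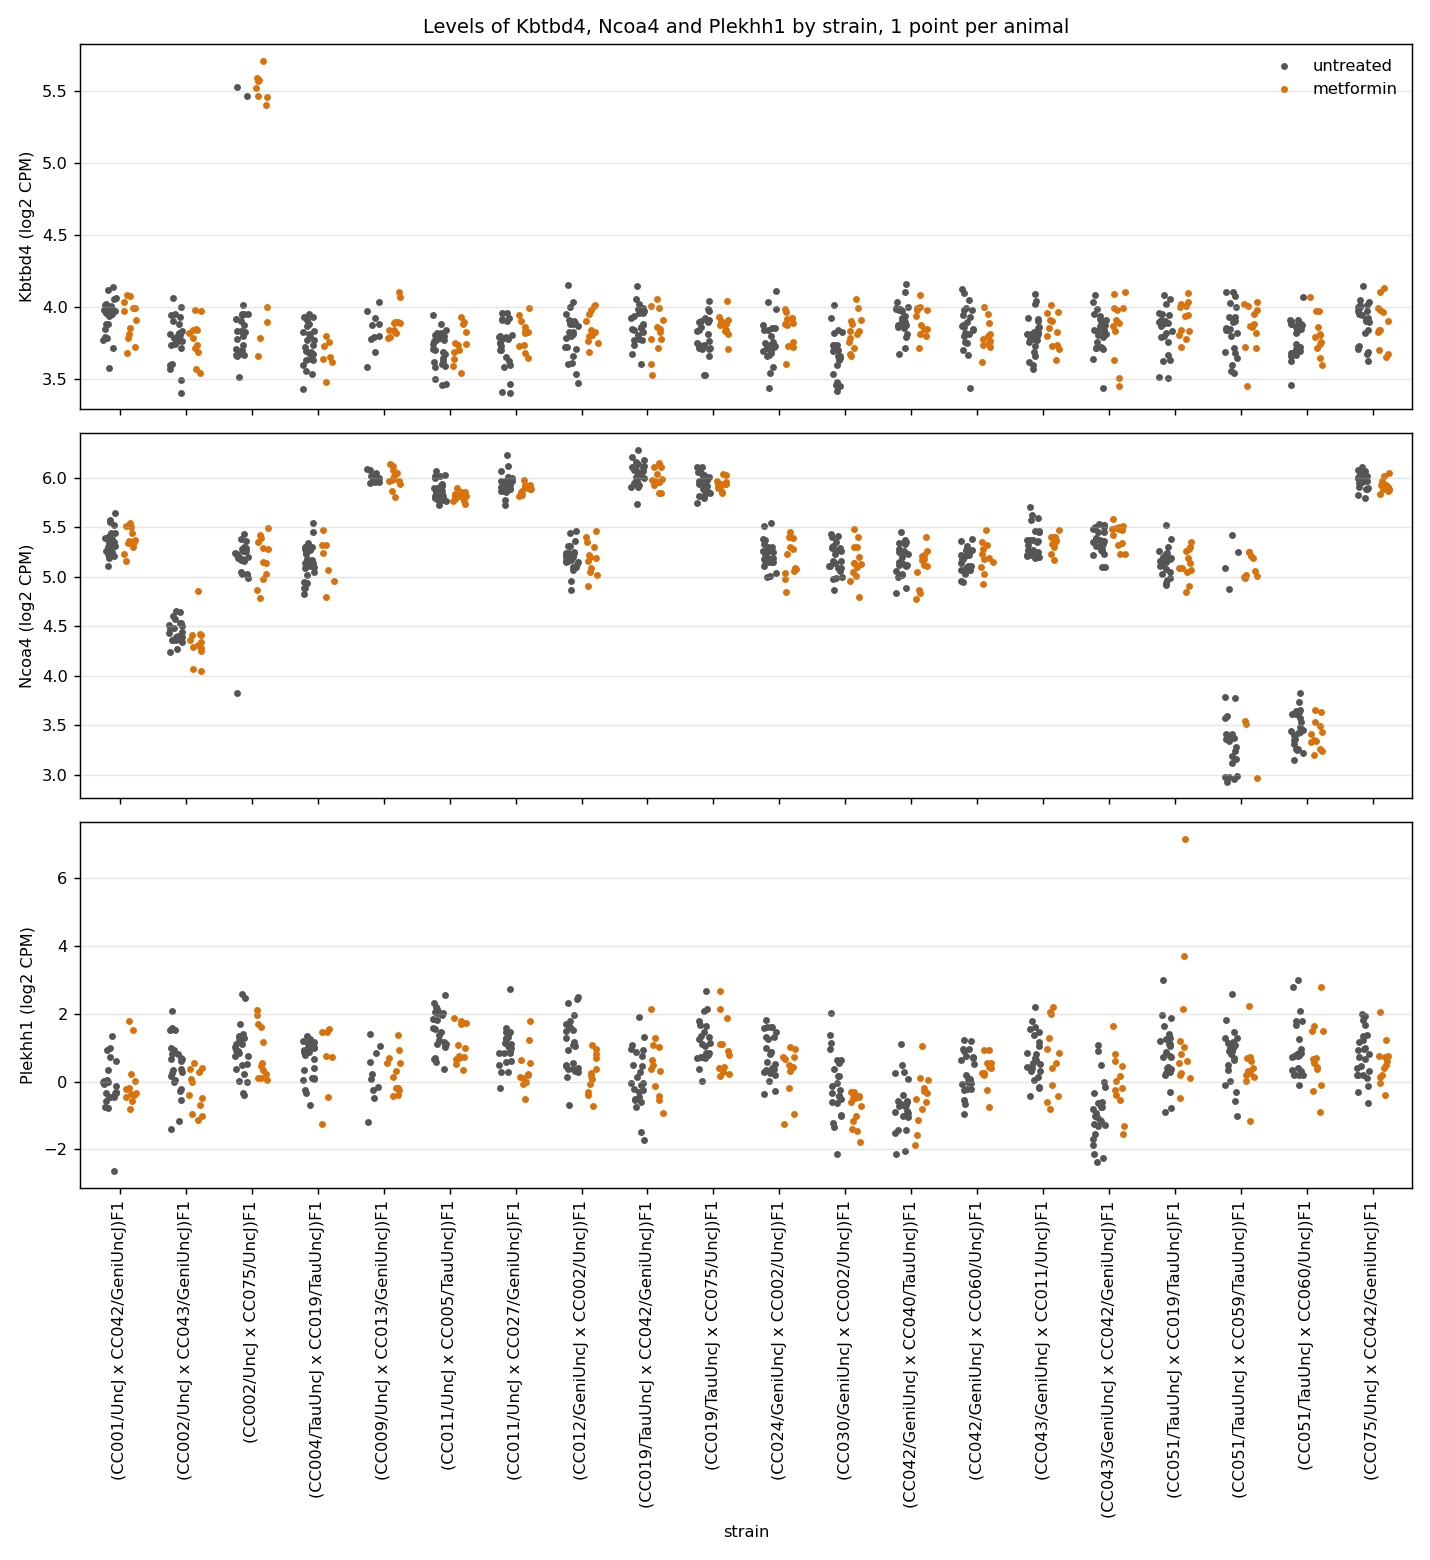
log2 CPM of Kbtbd4, Ncoa4 and Plekhh1 in every library, by strain, with untreated and metformin-treated animals in different colours. Kbtbd4 separates into 2 levels in (CC002/UncJ x CC075/UncJ)F1 and Ncoa4 in (CC051/TauUncJ x CC059/TauUncJ)F1, while Plekhh1 is spread in every strain.

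Kbtbd4 fell into 2 discrete levels in (CC002/UncJ x CC075/UncJ)F1. The lower level held 26 of its 36 animals, with a lowest value of 11.4, a median of 14 and a highest value of 16.1 CPM. The upper level held 10 animals, at 42.2, 45.9 and 52.2 CPM. No animal lay between 16.1 and 42.2 CPM, an empty interval of 1.39 log2 units. The means were 14 ± 1.26 CPM (SD, n = 26) and 46.1 ± 2.85 CPM (SD, n = 10), a ratio of 3.30. Within a level the animals varied as little as in other strains, with log2 SDs of 0.131 and 0.0876 against 0.791 over the whole strain.

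In the other 19 strains Kbtbd4 formed a single level. Their 667 libraries ran from 10.6 to 17.8 CPM with a median of 14.2, a range that contains the whole lower level and lies below every animal of the upper level. Within-strain log2 SDs there were 0.107 to 0.163, and the widest empty interval was 0.18 log2 units. The next question was which labels the levels went with.

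The 10 upper animals were 6 females and 4 males, with 5 on each diet. Fisher's exact test gave p = 0.711 for sex and p = 1 for diet (two-sided, n = 36; adjusted p = 1 for both over 16 tests). The test counts each animal as independent, although the paper states that housing and diets were assigned by litter. Litters are not in the labels, so these p-values do not allow for them. All 36 animals had sequencing identifiers of the same range. Metformin had been given to 8 of the 10 upper and 4 of the 26 lower animals, and the 2 untreated upper animals were both on 10% fat. In order of animal number, numbers 1 to 25 of the strain were all lower, 26 to 33 were all upper and treated, 34 was lower and treated, and 35 and 36 were upper and untreated. After the widest gap in animal number 10 of 24 animals were upper, and before it 0 of 12. All 12 treated animals had numbers after the gap, so this division cannot be told apart from the contrast that picked the gene, and it carries no test. Among untreated animals alone, 2 of 12 were upper after the gap and 0 of 12 before it.

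**Figure D2:**
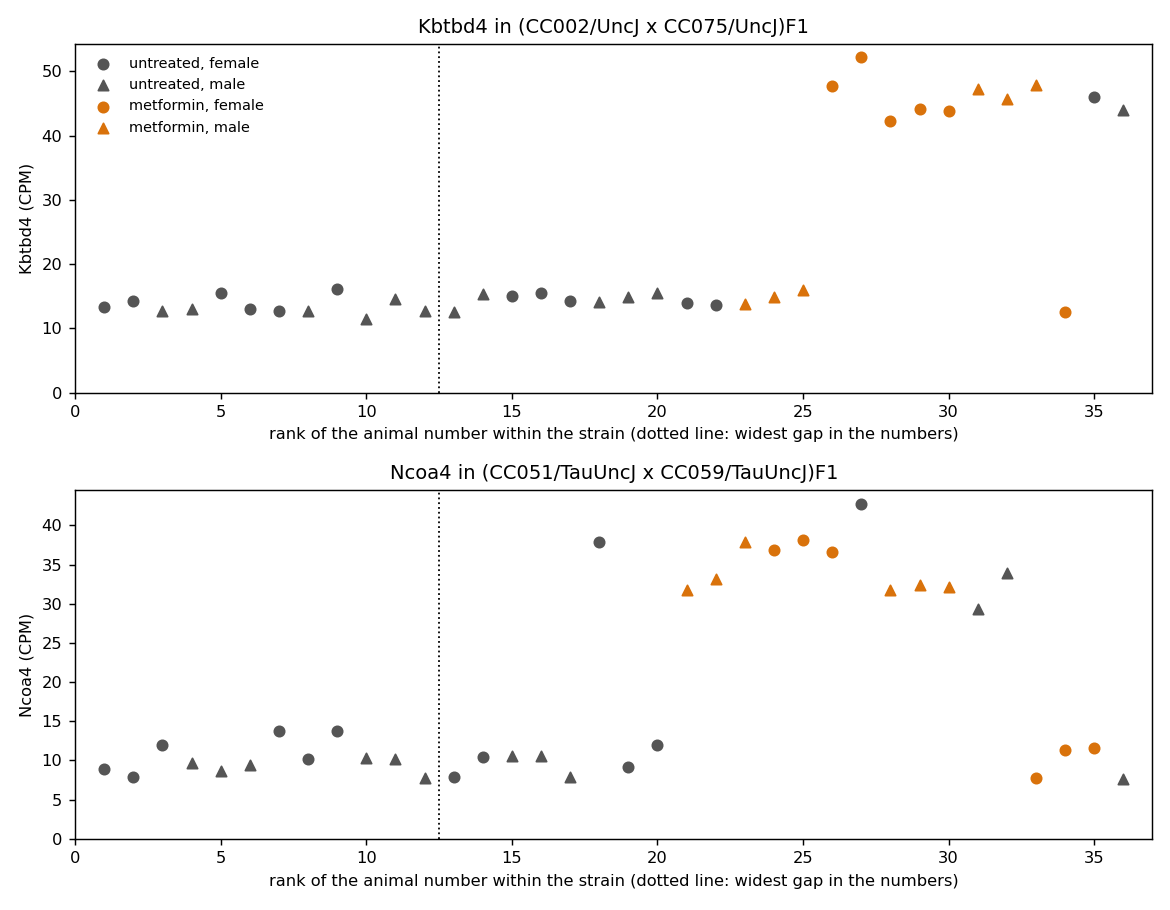
CPM of Kbtbd4 in (CC002/UncJ x CC075/UncJ)F1 and of Ncoa4 in (CC051/TauUncJ x CC059/TauUncJ)F1, by the order of animal numbers within the strain. Colour gives treatment, marker shape gives sex, and the dotted line is the widest gap in animal number. Upper animals follow each other in runs, numbers 26 to 33 for Kbtbd4 and 21 to 32 for Ncoa4, and both treatments occur in both levels.

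In the strain with 2 Kbtbd4 levels, the treatments differed in how many animals were at each level. The levels were drawn from Kbtbd4 itself, so like values within a level are partly built in. On log2 CPM, the mean difference (metformin minus untreated) in (CC002/UncJ x CC075/UncJ)F1 was 1.03 ± 0.26 (SE, 12 and 24 animals). In the lower level, treated animals had 14.3 ± 1.43 CPM (SD, n = 4) and untreated animals 13.9 ± 1.26 CPM (SD, n = 22). In the upper level the values were 46.4 ± 3.12 (SD, n = 8) and 45 ± 1.49 CPM (SD, n = 2), so the ranges of the treatments overlapped within both levels. Elsewhere the difference ran from -0.07 ± 0.05 in (CC004/TauUncJ x CC019/TauUncJ)F1 to 0.15 ± 0.04 in (CC030/GeniUncJ x CC002/UncJ)F1. Over all libraries the metformin difference was 0.09 ± 0.02 log2 units. Of all 17740 genes, 16.2% passed the metformin test and 8.87% the test of metformin by strain, shares from which nothing is read here, since the genes were picked on that contrast.

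The genes whose pattern was most like that of Kbtbd4 were Gapdh, a glycolytic enzyme, and copies of it. Pearson's r was taken between residuals of log2 CPM after a fit of strain, sex, diet, treatment and identifier range. The points are libraries that share strains and cohorts, and no p is given. Over the 36 animals of (CC002/UncJ x CC075/UncJ)F1, r with Kbtbd4 was -0.92 for Gapdh, -0.90 for Vamp1, a synaptic vesicle protein, and -0.83 for Ipo9, a nuclear import receptor. It was 0.90 for Gm10359 and 0.90 for Gm12671, both processed pseudogenes that match Gapdh at 100% over 1002 bases. In this strain both had few counts, with medians of 0 CPM in lower and 0.81 CPM in upper animals. Their levels and ranges were the same, so they are hardly separate measurements. Over all libraries r was largest for Gm7336 (0.57), a processed pseudogene 99.8% identical to Gapdh over 1232 bases, followed by Gm10359 (0.38), Gm12671 (0.38), Gapdh (-0.34) and the RNA helicase Ddx59 (0.33). This order depended on how r was taken. With Spearman's rho Gm7336 had 0.26, Gapdh 0.0088 and Ddx59 0.27, and with untreated libraries alone r was 0.30 for Gm7336, -0.15 for Gapdh and 0.30 for Ddx59. Under both, 0 of these 5 genes stayed among the 5 most like Kbtbd4. Without the libraries that go against their label r was 0.73 for Gm7336. Reads of these copies can be divided between them in counting, so their separate values are uncertain.

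Gapdh had a median of 5062 CPM in the lower and 2295 CPM in the upper animals, with ranges of 2710 to 6032 and 2028 to 3098 CPM that overlapped. Gm7336 ran from 3272 to 5127 CPM in the upper animals. In the lower animals its median was 3.65 CPM, and the 2 that stood apart, at 5027 and 8781 CPM, were both libraries that go against their label. The sum of Gapdh and Gm7336 had medians of 5209 CPM in the lower and 5955 CPM in the upper animals. Gm7336 did not mark a high Kbtbd4 level elsewhere. In (CC001/UncJ x CC042/GeniUncJ)F1 its median was 4197 CPM while that of Kbtbd4 was 15.5 CPM.

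Of the 17740 genes, Vamp1 was the only other one that divided the same 26 and 10 animals without overlap. It ran from 15.6 to 24.6 CPM in the lower and from 10.1 to 13.7 CPM in the upper animals, with medians of 18.8 and 12.4 CPM and an empty interval of 0.18 log2 units. Vamp1 starts at 125.22 Mb of chromosome 6 and Gapdh at 125.16 Mb, whereas Kbtbd4 is on chromosome 2. In bulk tissue, fewer cells of a type and less RNA per cell cannot be told apart.

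**Figure D3:**
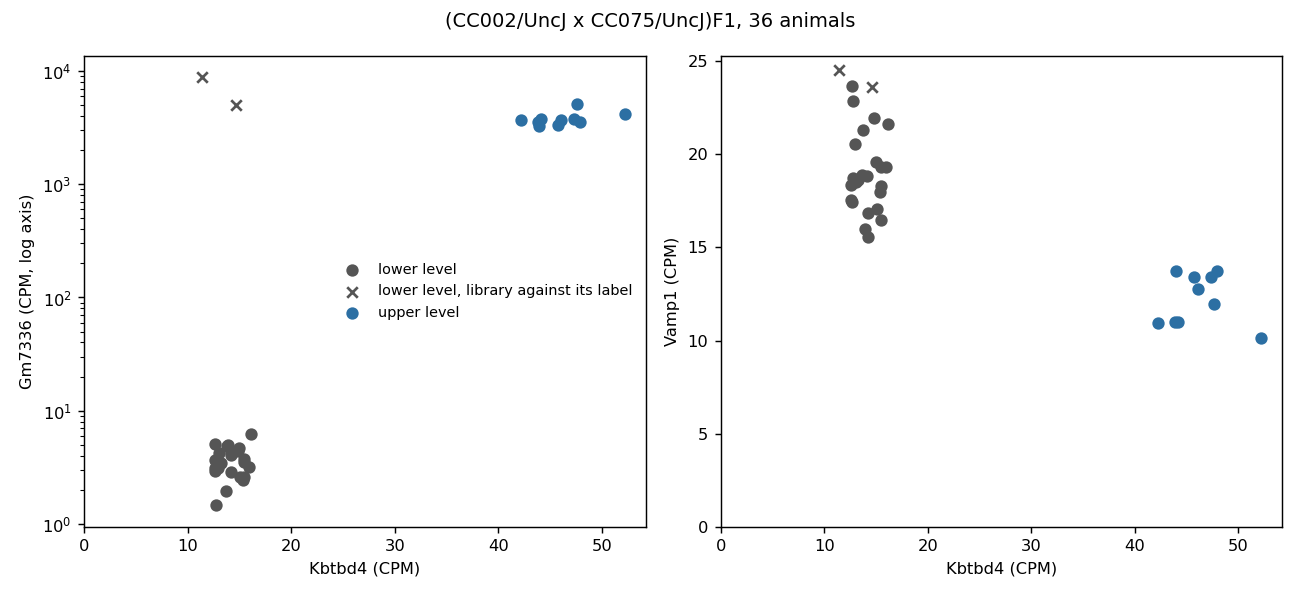
CPM of Gm7336 and Vamp1 against CPM of Kbtbd4 in the 36 animals of (CC002/UncJ x CC075/UncJ)F1, with libraries that go against their label marked. The 10 upper animals share Gm7336 values of at least 3272 CPM and Vamp1 values of at most 13.7 CPM.

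No neighbouring gene divided the animals without overlap as Kbtbd4 did. Of 24 tested genes within 500 kb, the largest r over all libraries were 0.30 for Ptpmt1, a mitochondrial phosphatase gene, 0.25 for Ndufs3, a subunit of respiratory complex I, and 0.19 for Arfgap2. Over the animals of the level strain they were 0.62, 0.21 and 0.33. Ptpmt1 and Ndufs3 lie on the opposite strand and overlap Kbtbd4, and a Ptpmt1 transcript shares 1547 bases with it. The paper does not name strand, but states that both reads of a pair were combined and aligned as single-ended. Reads of the shared bases could thus count for either gene. In the level strain, Ptpmt1 had medians of 17.8 CPM in lower and 23.7 CPM in upper animals with overlapping ranges of 14.7 to 36.3 and 20.8 to 29.9 CPM.

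Ncoa4 fell into 2 discrete levels in (CC051/TauUncJ x CC059/TauUncJ)F1. The lower level held 23 of 36 animals, with a lowest value of 7.59, a median of 10.1 and a highest value of 13.8 CPM. The upper level held 13 animals, at 29.4, 34 and 42.7 CPM. The levels were separated by an empty interval of 1.09 log2 units. Their means were 9.97 ± 1.85 CPM (SD, n = 23) and 35 ± 3.71 CPM (SD, n = 13), a ratio of 3.51.

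The 13 upper animals were 5 females and 8 males, 4 on 10% and 9 on 44% fat. Fisher's exact test gave p = 0.489 for sex, p = 0.164 for diet and p = 0.634 for identifier range (two-sided, n = 36), with adjusted p-values of 1, 0.876 and 1. As for Kbtbd4, these p-values count each animal as independent and do not allow for litters. Metformin had been given to 9 of the 13 upper and 3 of the 23 lower animals. In order of animal number, 1 to 17 were lower, 18 was upper, 19 and 20 were lower, 21 to 32 were upper and 33 to 36 were lower. After the widest gap in animal number 13 of 24 animals were upper, and before it 0 of 12. Here too all 12 treated animals came after the gap, and no test is given. Among untreated animals, 4 of 12 were upper after the gap and 0 of 12 before it.

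As for Kbtbd4, treated and untreated animals had like values within a level, which is partly built in because Ncoa4 itself defined the levels. In the lower level they had 10.3 ± 2.13 (SD, n = 3) and 9.92 ± 1.86 CPM (SD, n = 20), and in the upper level 34.5 ± 2.78 (SD, n = 9) and 36 ± 5.69 CPM (SD, n = 4). The mean log2 difference in the strain was 1.06 ± 0.28 (SE). In the other 19 strains it ran from -0.10 ± 0.06 in (CC002/UncJ x CC043/GeniUncJ)F1 up to 0.06 ± 0.04, the value of (CC043/GeniUncJ x CC042/GeniUncJ)F1. Over all libraries it was 0.04 ± 0.02.

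Gm6768 is a processed pseudogene (chr12:119260978-119262855, plus strand) and a near-identical copy of Ncoa4. It matches the transcript Ncoa4-202 at 99.9% over 1878 bases, a stretch that covers the 1875 coding bases with 2 differences, A1312G and G1533A. The Ncoa4 base stands first, the Gm6768 base last, and positions count from 1 at the first coding base. Of 1776 windows of 100 bases along the reference coding sequence, 1576 (88.7%) are the same in both. By that reference, most 100 bp reads of this stretch could come from either gene. The windows of 51 bases around both differences are shown, from the GRCm38 reference in lower case with the differing base in capitals. In this reference they hold the coding bases that can tell the genes apart. Sequences of the Collaborative Cross lines were not compared.
Ncoa4, coding bases 1287 to 1337: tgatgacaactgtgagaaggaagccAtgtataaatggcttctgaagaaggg
Gm6768, chr12:119262264-119262314, plus strand: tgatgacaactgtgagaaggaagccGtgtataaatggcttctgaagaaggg
Ncoa4, coding bases 1508 to 1558: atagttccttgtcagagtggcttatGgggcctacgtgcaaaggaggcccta
Gm6768, chr12:119262485-119262535, plus strand: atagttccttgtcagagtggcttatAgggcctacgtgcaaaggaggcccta

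Gm6768 ran opposite to Ncoa4 in the level strain. It had 44.9, 51.8 and 58.2 CPM (lowest, median, highest) in the animals with low Ncoa4 and 18.9, 23.1 and 29 CPM in those with high Ncoa4. It was the only other gene of 17740 that divided the same 23 and 13 animals without overlap, with an empty interval of 0.63 log2 units, and its r with Ncoa4 over the strain was -0.92 (n = 36). The sum of both genes was 53.3, 62.1 and 69.3 CPM in the lower and 48.2, 58.4 and 71 CPM in the upper animals. The sum overlapped between the levels, unlike either gene alone.

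Ncoa4 also differed between strains. Sorted by mean, and divided where neighbours differ by 8% or more, a limit set after the values were seen, the other 19 strains formed 5 steps of Ncoa4. The lowest was (CC051/TauUncJ x CC060/UncJ)F1 at 11 CPM, followed by (CC002/UncJ x CC043/GeniUncJ)F1 at 21.3 CPM. A further 8 strains had means of 35.5 to 37.3 CPM, 3 strains 41 to 41.7 CPM, and 6 strains 58.1 to 65 CPM. Libraries of the lowest step reached 14.1 CPM and those of the next began at 16.5 CPM, and libraries of the highest step began at 52.7 CPM where the step below ended at 52.3 CPM. The steps in the middle overlapped in their libraries. In (CC051/TauUncJ x CC059/TauUncJ)F1, the lower animals lay near the lowest step and the upper animals near the step of 8 strains.

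Gm6768 took the reverse order. From the lowest to the highest Ncoa4 step its strain means were 52, 40.3, 25.1 to 26.9, 17.6 to 18.2 and 0.0361 to 0.144 CPM. Strain means of Ncoa4 differed up to 5.93-fold, whereas those of the sum lay between 58.2 and 65 CPM, 1.12-fold apart. The sum had a coefficient of variation of 7.90% over all libraries. Only 1 library had a sum under 40 CPM, a male on 44% fat, untreated, labelled (CC002/UncJ x CC075/UncJ)F1, with 14.1 CPM of Ncoa4 and 12.0 CPM of Gm6768. It is among the libraries that go against their label.

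**Figure D4:**
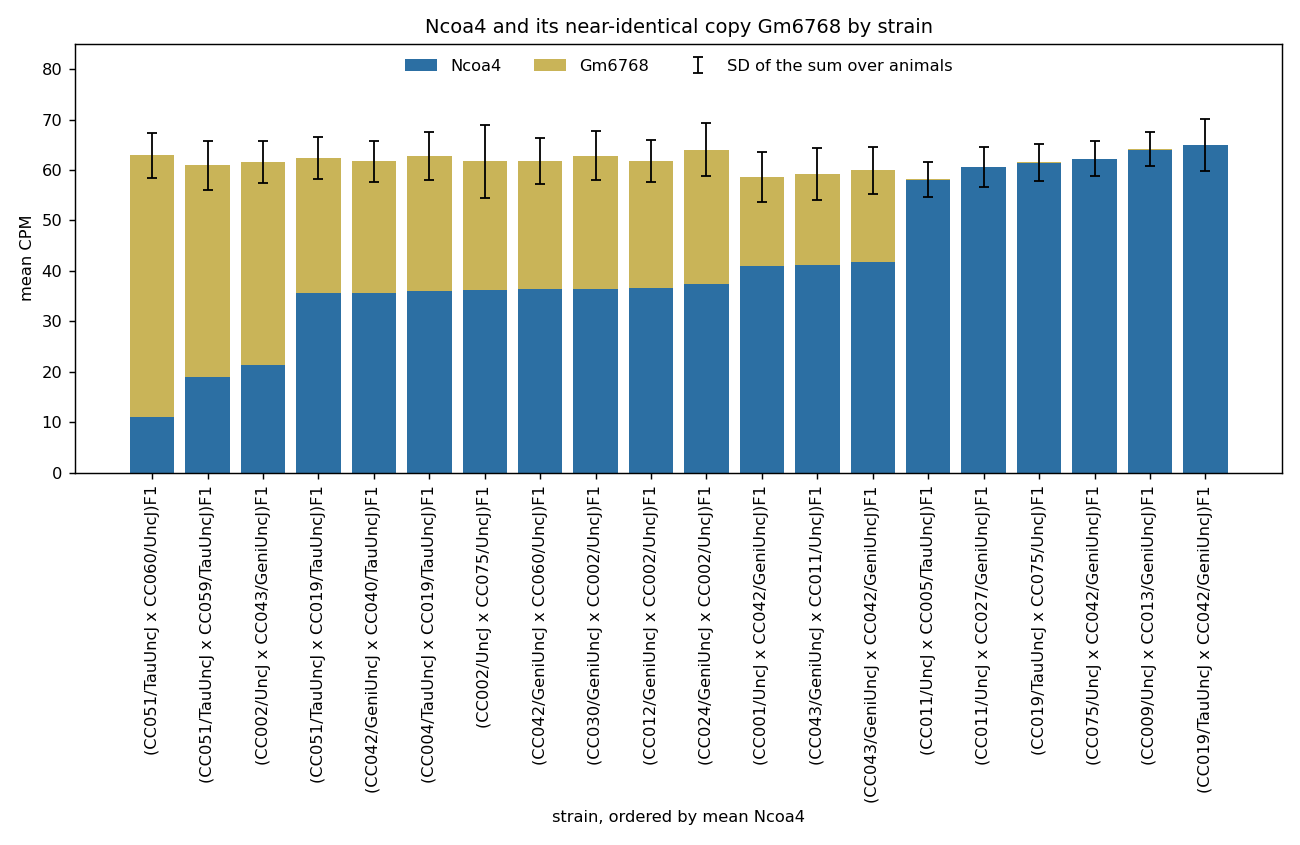
Mean CPM of Ncoa4 and Gm6768 in each strain as stacked bars, with strains ordered by mean Ncoa4. Error bars give the SD of the sum over animals. The highest Gm6768 means stand with the lowest Ncoa4 means, and strain means of the sum lie between 58.2 and 65 CPM.

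Genes other than the copy followed Ncoa4 less closely. In the level strain r was -0.68 for Acox3, a peroxisomal oxidase, 0.67 for Ogdhl, a relative of oxoglutarate dehydrogenase, -0.64 for the transcription factor Tfcp2 and -0.64 for Vstm4. Ogdhl and Vstm4 are on chromosome 14, at 32.32 and 32.86 Mb. Ogdhl had medians of 0.296 CPM in lower and 1.01 CPM in upper animals. Over all libraries the largest r were -0.23 for Sugp1, 0.23 for Crk, 0.23 for Tm9sf2 and 0.23 for Erap1. Of the 5 highest genes, 2 stayed among them without the libraries that go against their label. With untreated libraries alone 1 stayed, and with Spearman's rho 0. Of 11 tested genes within 500 kb the largest were Ogdhl (0.22), Oxnad1 (0.13) and Prrxl1 (-0.10).

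Fth1, Ftl1 and Tfrc, genes of ferritin and iron uptake, were compared between the Ncoa4 levels. Fth1, the ferritin heavy chain, had medians of 767 CPM in lower and 768 CPM in upper animals. Ftl1, the light chain, had 100.7 and 90.1 CPM, and Tfrc, the transferrin receptor, 86.5 and 64.1 CPM. Ranges overlapped in all 3, as for Tfrc at 33 to 134.3 and 25.5 to 109.3 CPM. Gm6768 was the only other gene without overlap, so overlap alone says little here. Whether these 3 genes differed between the levels was not tested.

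Plekhh1 was spread broadly in every strain. Strain medians ran from 0.556 CPM, that of (CC043/GeniUncJ x CC042/GeniUncJ)F1, to 2.63 CPM in (CC011/UncJ x CC005/TauUncJ)F1. Within-strain log2 SDs ran from 0.570 to 1.41, and in all 20 strains exceeded those of every strain in which Kbtbd4 formed a single level. An empty interval of at least 0.5 log2 units was present in 13 strains, and in 12 strains it or another set off fewer than 3 animals.

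By the same description Plekhh1 had 2 levels in 2 strains. In (CC002/UncJ x CC043/GeniUncJ)F1, 32 animals lay at 0.338 to 1.97 CPM and 4 at 2.85 to 4.19 CPM, with an empty interval of 0.53 log2 units. In (CC051/TauUncJ x CC060/UncJ)F1, 32 animals lay at 0.789 to 4.23 CPM, 3 at 6.88 to 7.88 CPM, with an interval of 0.70, and 1 was isolated at 0.493 CPM. The 4 upper animals of the former were untreated, and of the 3 in the latter 1 was treated. In the former 3 of the 4 upper animals were on 10% fat, and in the latter all 3 were on 44% fat (3 of 18 against 0 of 17). With so few upper animals, even this most uneven division gave p = 0.229 (Fisher's exact test, two-sided), so tests by label could show nothing here. None of these levels was present when the interval had to reach 1 log2 unit, when a level needed 5 animals, or on the variance-stabilised scale, whereas those of Kbtbd4 and Ncoa4 were present under each of these. After adjustment for sex and diet within strains 0 of the 2 strains kept their Plekhh1 levels, and 1 of 2 did so with untreated libraries alone or with the lower identifier range alone.

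One animal stood far above the others. A metformin-treated male on 44% fat of (CC051/TauUncJ x CC019/TauUncJ)F1 had 7702 Plekhh1 counts, 142.9 CPM, where its strain had a median of 1.68 CPM and the next highest library, also of this strain, 12.9 CPM. This library did not go against its label. In it 64 genes lay at least 1 log2 unit above all others of the strain, against a median of 1 such gene in the other libraries, 31 of which had as many or more. The genes furthest above, named after their values were seen, were Hpgd, a prostaglandin dehydrogenase, at 98.7 CPM with the next animal at 4.81, the keratin Krt18 at 50.8 with 7.05, and Lpin2, a phosphatidate phosphatase, at 51.2 with 7.28 CPM. Gadd45a, a stress response gene, had 80.4 CPM with the next at 14.3, and Cpne2 62.3 with 11.9 CPM.

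The metformin difference of Plekhh1 was of opposite sign in different strains. It ran from -0.82 ± 0.23 log2 units (SE) in (CC012/GeniUncJ x CC002/UncJ)F1 up to 0.86 ± 0.31, the value of (CC043/GeniUncJ x CC042/GeniUncJ)F1. In (CC051/TauUncJ x CC019/TauUncJ)F1, with the highest animal, it was 0.61 ± 0.63. Over all libraries it was -0.03 ± 0.08.

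Within strains, the genes most like Plekhh1 were a mixed group. Over all libraries r was 0.48 for Musk, the muscle-specific kinase of the neuromuscular junction, and 0.46 for Hdac4, a histone deacetylase that acts in denervated muscle. It was -0.54 for Hs3st5, a heparan sulfate sulfotransferase, -0.52 for Rasgrp3, a Ras activator, and -0.50 for Pygo1, a Wnt pathway component. Without the highest animal these were 0.47, 0.42, -0.54, -0.48 and -0.47. Over the 72 animals of the strains with levels, r was -0.64 for Rasgrp3, -0.63 for Pitpnc1, -0.61 for Gimap6, -0.60 for Ppp2r3a and 0.59 for Musk. Of 11 tested genes within 500 kb the largest were Tmem229b (0.34), Pigh (0.20), which overlaps Plekhh1, and Gphn (-0.13). Macrophage markers had r of 0.0866 to 0.218, Schwann cell markers 0.0567 to 0.127 and muscle fibre markers -0.157 to -0.0418. The r of endothelial markers ran from -0.141 to 0.155 and that of adipocyte markers from -0.0220 to 0.152. Red blood cell markers had -0.0421 to -0.0033 and hepatocyte markers -0.0324 to 0.0065. The part of these cells in the spread was not tested.

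**Figure D5:**
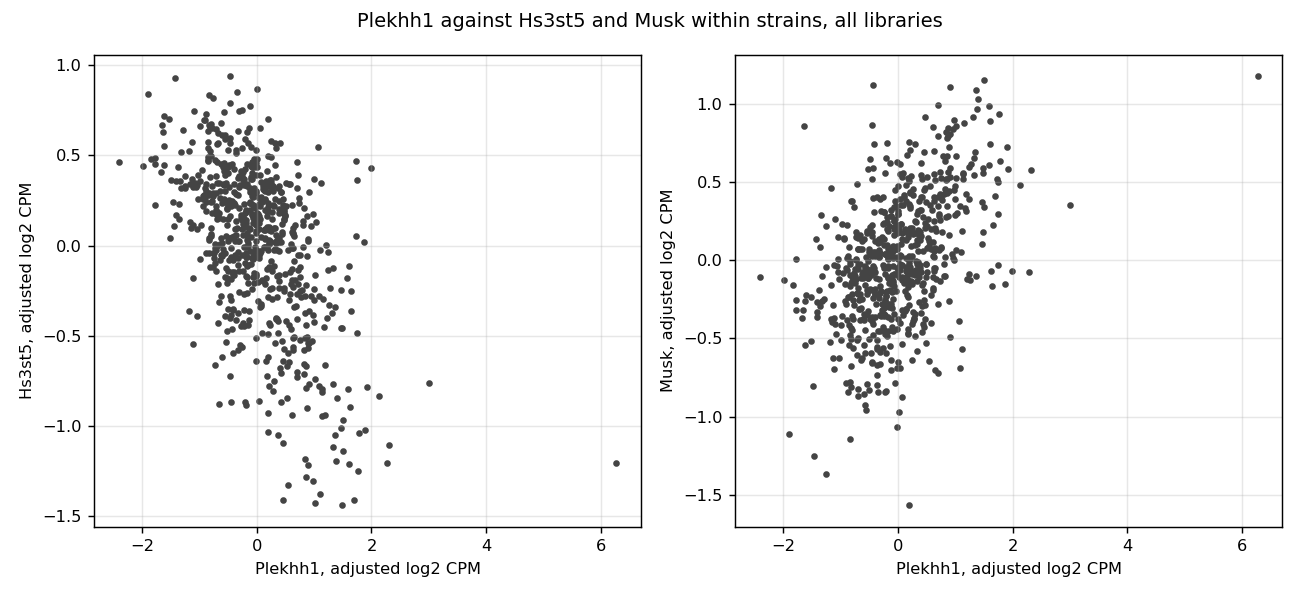
log2 CPM of Hs3st5 (left) and Musk (right) against that of Plekhh1, as residuals after the fit of strain, sex, diet, treatment and identifier range, 1 point per library. Hs3st5 falls (r = -0.54) and Musk rises (r = 0.48) along a continuous spread of Plekhh1, and the highest animal lies alone at the right.

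Correlation between the members was weak. Residual r over all libraries was 0.04 for Kbtbd4 with Ncoa4, -0.10 for Kbtbd4 with Plekhh1 and 0.03 for Ncoa4 with Plekhh1.

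Diet, sex and strain were then tested in the untreated libraries (236 females and 233 males). The choice of genes did not use diet or sex. It did use the untreated strain means, so the strain test is not independent of that choice. Each was tested with edgeR's quasi-likelihood test, with Benjamini-Hochberg adjustment over all genes tested. For diet (44% minus 10% fat), none of the members passed, where 18.4% of all genes did. The log2 differences were -0.02 ± 0.02 for Kbtbd4 (SE, adjusted p = 0.501), -0.02 ± 0.02 for Ncoa4 (adjusted p = 0.484) and 0.12 ± 0.07 for Plekhh1 (adjusted p = 0.253).

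For sex, 2 of the 3 members passed, a share close to the 65.2% of all genes. Plekhh1 was lower in males, with a difference (male minus female) of -0.24 ± 0.07 log2 units (SE, adjusted p = 0.00129), with males below females in 16 of 20 strains. Kbtbd4 was lower in males, at -0.04 ± 0.02 (adjusted p = 0.0412), and Ncoa4 had -0.05 ± 0.02 (adjusted p = 0.0514). Among libraries of the lower identifier range alone the calls for Plekhh1 and Kbtbd4 held, whereas in the upper range alone the differences were 0.10 (adjusted p = 0.779) and 0.03 (adjusted p = 0.625).

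Strain passed for all 3 members, as for 93.2% of all genes. Adjusted p-values were 1.68e-10 for Kbtbd4, 5.59e-191 for Ncoa4 and 5.60e-35 for Plekhh1. Nothing is read from these passes, since the choice of genes drew on the same untreated strain means. When Ncoa4 and Gm6768 were summed as 1 gene, a choice made after the data were seen, the adjusted p for strain was 5.65e-06. The sum was also lower on 44% fat, with a difference of -0.03 log2 units (adjusted p = 0.00990), and in males, with -0.03 (adjusted p = 0.00248). In that fit Kbtbd4 no longer passed for sex (adjusted p = 0.0804).

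The diet difference depended on strain for Plekhh1 (edgeR interaction test, adjusted p = 0.0235), as for 3.27% of all genes. It ran from -0.68 ± 0.23 log2 units (SE) in (CC024/GeniUncJ x CC002/UncJ)F1 up to 0.73 ± 0.34, the value of (CC043/GeniUncJ x CC042/GeniUncJ)F1. The sex difference of Plekhh1 also depended on strain (edgeR interaction test, adjusted p = 0.0474), as for 29.4% of all genes, from -1.03 ± 0.38 in (CC009/UncJ x CC013/GeniUncJ)F1 to 0.53 ± 0.30 in (CC051/TauUncJ x CC059/TauUncJ)F1. Neither call was kept by limma voom (adjusted p = 0.509 and 0.208) or without the libraries that go against their label (adjusted p = 0.0737 and 0.0752). In the lower identifier range alone the call was kept for diet by strain (adjusted p = 0.0282) and not for sex by strain (adjusted p = 0.110), so that sex by strain passed under none of the 3 alternatives run. Kbtbd4 and Ncoa4 passed neither interaction, with adjusted p of 0.190 and 0.949 for diet and 0.783 and 0.900 for sex.

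The pathways around the members were read from lists written from general knowledge. Of 18 genes of ferritin and iron handling, 7 passed for diet by the same edgeR test (18.4% of all genes did), 2 higher and 5 lower on 44% fat, with a median difference of -0.0060 log2 units beside -0.0024 over all genes. Slc40a1, the iron exporter ferroportin, rose by 0.11 ± 0.02 (SE), while Hmox1, which releases iron from heme, fell by 0.11 ± 0.03 and Ftl1 fell by 0.07 ± 0.02. For sex 14 of 18 passed (65.2% of all genes did), 6 higher and 8 lower in males, with a median of -0.04 beside -0.02 over all genes. Fth1 was higher in males by 0.29 ± 0.01, Tfrc by 0.32 ± 0.04, and Herc2, the ubiquitin ligase that marks NCOA4 for degradation, fell by 0.36 ± 0.02.

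Of 18 genes of the CUL3 ligase and CoREST complex, 4 passed for diet (3 higher, 1 lower) and 14 for sex (9 higher, 5 lower in males). These shares stand beside 18.4% and 65.2% of all genes. Their medians were 0.0015 for diet and 0.04 for sex, beside -0.0024 and -0.02 over all genes. Cul3 itself was higher in males by 0.10 ± 0.01 log2 units (SE) and Keap1, the adaptor for the stress regulator NRF2, by 0.15 ± 0.01, whereas Kbtbd11 fell by 0.54 ± 0.07. Of the 15 tested genes with MyTH4 or FERM domains or related to Plekhh1, 4 passed for diet (2 higher, 2 lower) and 11 for sex (4 higher, 7 lower), with medians of 0.02 and -0.03, beside the same shares and medians over all genes. Plekhh2, a relative of Plekhh1, was lower in males, at -0.27 ± 0.03, and Myo10, a motor of filopodia, was higher by 0.44 ± 0.02. All tested genes of the 3 lists passed for strain, as did 93.2% of all genes.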

How the data were processed

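Libraries of polyadenylated RNA (KAPA mRNA HyperPrep) were sequenced 100 bp paired-end. Both reads of a pair were then combined and aligned as single-ended. The authors estimated gene counts with EMASE in the GBRS package, which divides reads between alleles and genes, and deposited these expected counts as whole numbers (build GRCm38). They also deposited a log2-like variance-stabilised table made with DESeq2, used here only as an alternative score of the same libraries. All 703 libraries were used, grouped by their labels, with 1 library per animal.

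From the counts, log2 CPM (TMM, prior count 2) was computed with edgeR 4.0.16 in R 4.3.3, and genes were kept by filterByExpr over the 8 groups (17740 over all libraries, 16384 tested in untreated libraries). Diet, sex, strain and their interactions were tested in 469 untreated libraries by quasi-likelihood F tests, with the other factors and the range of the sequencing identifier (lower 544, upper 159 libraries) as terms. The dispersion trend came from the additive design. For differences over all strains, SE is the log2 difference divided by the root of F. For differences within 1 strain, SE comes from the variances of log2 CPM in the compared groups, without other terms. Adjusted p-values under 0.05 were called. Levels were tested with Fisher's exact test, 16 tests together, with each animal taken as independent. limma 3.58.1 (voom) and DESeq2 1.42.0 were alternatives, and transcripts were aligned with BLAST 2.17.0. On simulated counts for the diet comparison (15398 genes) all 50 genes changed by -1 and all 50 changed by 1 were called, 22 of 50 at -0.25, 12 of 50 at 0.25 and 2 of 15198 unchanged genes. Counting error was not separated from animal variation.

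The members and lists were chosen with earlier results of these data known. Named genes were the members, the 5 genes of largest absolute r over all libraries and over level strains, the 3 such genes within 500 kb, and the lists. Protein sequences are not used here. A few genes that this rule or the marker lists would name, and the results that need them, are not reported here.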

Additional observations from a re-analysis of the deposited data

Results flagged for a closer look

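For Plekhh1, edgeR's interaction test in untreated animals passed for diet by strain (adjusted p = 0.0235) and for sex by strain (adjusted p = 0.0474). Neither call was kept by limma voom (0.509 and 0.208) or without the libraries that go against their label (0.0737 and 0.0752). With the lower identifier range alone diet by strain passed (0.0282) and sex by strain did not (0.110).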

How the results depend on the processing

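The levels of Kbtbd4 and Ncoa4 each remained in their strain at every interval, size and scale tried. With untreated animals alone, only 2 upper animals of Kbtbd4 were left, too few for a level. The count of pairs of a member and a strain with levels, 4 as reported, was 12 with an interval of 0.3, 2 with an interval of 1, 8 with at least 2 animals, 2 with at least 5 animals and 2 on the variance-stabilised scale, all through Plekhh1. Of the tests of levels by label (Fisher's exact test), the 1 that passed, Ncoa4 by animal number, cannot be told apart from metformin and supports nothing, and with an interval of 0.3 the count was 0. Genes called numbered 299 for diet, 4019 for sex and 8601 for strain in the upper identifier range alone, which holds fewer libraries, and 6402 for sex and 8527 for strain among genes of at least 5 CPM, of which fewer were tested. Diet by strain called 0.641% of genes with voom, against 3.27%. In the upper range the log2 differences of Kbtbd4 for diet (0.0030) and sex (0.030) and of Plekhh1 for sex (0.10) were of opposite sign to those reported, and the cause was not tested. Of the 15 genes most like the members, 4 were kept with Spearman's rho and 5 with untreated libraries alone. The r of Gapdh with Kbtbd4 over all libraries became 0.0088 with Spearman's rho. The call of Ncoa4 for sex, just missed as reported, was reached with RLE size factors, voom, DESeq2, genes of at least 5 CPM and the lower range alone. No paired analysis was possible because replicate numbers only count animals within a group. Plekhh1 had a median of 68 counts, and the part of counting error in its spread was not tested.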
